A study of Mus musculus with 3 samples.

Results

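The ISG15 conjugation and removal pathway was followed through 5 genes in mouse macrophages exposed to lipid A a second time. They are Isg15, Uba7, Ube2l6, Herc6 and Usp18, chosen by symbol as the modifier, the enzymes that attach it and the protease that takes it off, and they are 5 of 55536 annotated genes and of 22028 protein-coding genes. Polyadenylated RNA came from bone-marrow-derived macrophages of the strain C57BL/6J, primary phagocytes grown from marrow precursors, whose sex and age are not recorded. Per the labels, every culture first received lipid A at 100 ng/ml for 12 h, was kept without it for 12 h after washing, and was given lipid A at 100 ng/ml again for 480 min, and 1 µg of RNA went into each library. Lipid A is the part of bacterial lipopolysaccharide that Toll-like receptor 4 senses, and other fields of the same labels call the agent lipoprotein A. The 3 libraries carry the biological replicate numbers 1, 2 and 3 and form 1 group, with no untreated or once-exposed library analysed here. No effect of the treatment is therefore given, only levels, ratios inside each library and how the libraries differ. All 3 point to the same donor record, and nothing in the labels says that separate animals were used, so their spread may be technical.

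Replicate 2 stood apart from the other libraries. Mitochondrially encoded messenger RNA took 6.86% of its counts, while replicates 1 and 3 had 1.06% and 1.13%, and ribosomal RNA took 0.232%, against 3.21% and 1.97%. Results that rest on replicate 2 are given with and without it. Expected counts, which are estimates of reads per gene that need not be whole, totalled 24596382 in replicate 1, 54016971 in replicate 2 and 43127749 in replicate 3. Macrophage markers were present, with 8 of 8 at 1 TPM (a level scaled for transcript length and library size) or more in every library and a summed level of 13482 to 16732 TPM. Marker lists of T cells, B cells, natural killer cells, neutrophils, dendritic cells, fibroblasts and erythroid cells summed to at most 3.22 TPM in any library. Of their 35 genes, Cd79b alone reached 1 TPM in every library, and 7 were listed at 0, among them Cd79a, Nkg7, Ly6g, Hbb-bt and Hba-a1. In bulk RNA, a change in the number of cells of a type and a change in RNA per cell cannot be told apart.

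ISG15 is a small protein built of linked ubiquitin-like folds, and type I interferon strongly induces it. The activating enzyme UBA7 (E1) charges it, UBE2L6 (E2) carries it, and a ligase (E3) joins it to lysines of other proteins, a role filled mainly by HERC6 in mice and by HERC5 in humans. USP18 cuts ISG15 off again, and apart from that activity it binds the interferon receptor and restrains its signal. In macrophages the pathway is known as part of the antiviral response, and free ISG15 is also released from cells.

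The coding ends of Isg15, Nedd8 and Ubb are shown because the E1 enzyme of each system acts on the tail of its own modifier. Each sequence comes from the GENCODE M21 transcript with the highest level, on mm10, and runs to the stop codon. Capitals mark the codons of the tail, which closes with the glycine pair through which the protein is joined to its targets.
Isg15 (chromosome 4, minus strand): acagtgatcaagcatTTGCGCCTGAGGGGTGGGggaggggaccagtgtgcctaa
Nedd8 (chromosome 14, minus strand): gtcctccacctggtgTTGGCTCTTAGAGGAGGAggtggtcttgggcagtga
Ubb (chromosome 11, plus strand, last ubiquitin unit): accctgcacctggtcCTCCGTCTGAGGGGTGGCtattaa
Isg15-201 encodes 161 residues, and 6 codons follow the tail before the stop. In Nedd8-201, 5 codons follow it, and in Ubb-201 there is 1. All 3 precursors thus carry residues that have to be removed before the tail is free.

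Promoter windows are shown because the members differ in the interferon-type motifs they hold. RefSeq sequences for GRCm38.p6 run from 250 bases before to 50 bases after the gene start, and 4 of the 5 members matched, the exception being Usp18. Capitals mark matches, on either strand, to AANNGAAA, the core bound by interferon regulatory factors, or to GAAANNGAAA, the core of the interferon-stimulated response element, which contains the shorter motif.
Isg15, chr4:156200769-156201068, minus strand: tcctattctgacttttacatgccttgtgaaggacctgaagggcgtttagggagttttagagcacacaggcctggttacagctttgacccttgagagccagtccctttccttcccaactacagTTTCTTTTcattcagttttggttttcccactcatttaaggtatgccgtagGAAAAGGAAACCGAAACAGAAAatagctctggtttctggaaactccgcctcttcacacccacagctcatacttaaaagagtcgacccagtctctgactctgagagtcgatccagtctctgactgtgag
Uba7, chr9:107975317-107975616, plus strand: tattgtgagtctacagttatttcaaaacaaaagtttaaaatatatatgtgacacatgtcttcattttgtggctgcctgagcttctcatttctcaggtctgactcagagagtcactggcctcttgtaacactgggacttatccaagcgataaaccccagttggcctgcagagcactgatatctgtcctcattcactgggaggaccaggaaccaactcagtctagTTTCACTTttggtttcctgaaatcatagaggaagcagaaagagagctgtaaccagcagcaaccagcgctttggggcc
Ube2l6, chr2:84798578-84798877, plus strand: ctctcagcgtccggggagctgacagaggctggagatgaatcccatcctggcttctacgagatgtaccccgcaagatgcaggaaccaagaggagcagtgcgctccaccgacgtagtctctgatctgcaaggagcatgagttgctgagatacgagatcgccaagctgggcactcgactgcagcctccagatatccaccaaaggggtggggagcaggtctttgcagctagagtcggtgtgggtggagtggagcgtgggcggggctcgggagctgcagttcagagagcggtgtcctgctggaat
Herc6, chr6:57580742-57581041, plus strand: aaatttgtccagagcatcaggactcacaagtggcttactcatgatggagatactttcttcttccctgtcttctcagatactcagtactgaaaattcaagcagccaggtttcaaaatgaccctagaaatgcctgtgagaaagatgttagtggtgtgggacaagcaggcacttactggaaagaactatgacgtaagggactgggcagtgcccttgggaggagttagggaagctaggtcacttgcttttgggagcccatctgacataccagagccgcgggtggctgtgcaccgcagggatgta
The Isg15 window held 3 overlapping matches to the longer motif, GAAAAGGAAA, GAAACCGAAA and GAAACAGAAA, the first of which begins 78 bases before the gene start. It held 4 matches to the shorter one, and the fourth lies apart from the cluster on the other strand. The Uba7 window held 1 match to the shorter motif, AAGTGAAA on the minus strand, and none to the longer. That match begins 27 bases before the RefSeq start. The GENCODE start of the Uba7 transcript with the highest mean level lies 33 bases before the same RefSeq start, which puts the match inside that transcript. The Ube2l6 and Herc6 windows held neither motif, which says only that these letters are not in these windows. Of 32817 promoter windows of the same length, 3.43% held the longer motif and 23.9% the shorter.

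Isg15 (ENSMUSG00000035692.6, chromosome 4, 156199424 to 156200818, minus strand) was by far the most abundant member. Its level was 4478 TPM in replicate 1, 1139 TPM in replicate 2 and 3347 TPM in replicate 3. Replicate 2 lay well below both other libraries, which were closer to each other. The mean was 2988 ± 1699 TPM (SD, n = 3), or 3913 TPM without replicate 2. That mean ranked 32 among 10350 protein-coding genes that reached 1 TPM in at least 1 library, whose median was 15.1 TPM. By library the rank of Isg15 was 19, 84 and 25 in replicates 1, 2 and 3.

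Uba7 (ENSMUSG00000032596.14, chromosome 9, 107975505 to 107984060, plus strand), the E1 dedicated to ISG15, followed the same order of libraries far below it. It had 241 TPM in replicate 1, 73.1 TPM in replicate 2 and 210 TPM in replicate 3. Again replicate 2 was low and the other libraries were near each other. The mean was 175 ± 89.3 TPM (SD, n = 3) and 225 TPM without replicate 2. Its mean ranked 758 of the 10350 genes, with 579, 1528 and 672 in replicates 1, 2 and 3.

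Ube2l6 (ENSMUSG00000027078.14, chromosome 2, 84798828 to 84810335, plus strand), the E2, was among the steadier members. It had 367 TPM in replicate 1, 335 TPM in replicate 2 and 401 TPM in replicate 3. No library stood away from the others, and the mean was 368 ± 32.9 TPM (SD, n = 3), rank 364.

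Herc6 (ENSMUSG00000029798.11, chromosome 6, 57581000 to 57664632, plus strand), the E3, was likewise even across the libraries. It had 221 TPM in replicate 1, 178 TPM in replicate 2 and 184 TPM in replicate 3, where replicate 1 was the highest and the other libraries nearly met. The mean was 194 ± 23.2 TPM (SD, n = 3), rank 690.

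Usp18 (ENSMUSG00000030107.10, chromosome 6, 121245906 to 121270917, plus strand), the protease, was the second most abundant member. It had 743 TPM in replicate 1, 356 TPM in replicate 2 and 694 TPM in replicate 3. Replicate 2 was again the low library, less so than for Isg15 and Uba7. The mean was 598 ± 211 TPM (SD, n = 3), rank 208, and 719 TPM without replicate 2.

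**Figure D1:**
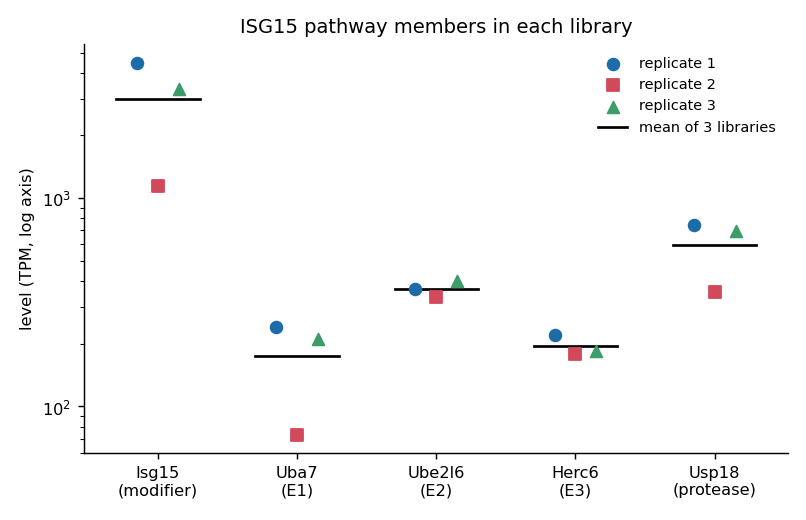
Levels of the 5 members in TPM on a log axis, 1 point per library and a bar at the mean of 3 libraries. Replicate 2 lies far below the other points for Isg15 (1139 TPM), Uba7 (73.1 TPM) and Usp18 (356 TPM), and close to them for Ube2l6 and Herc6.

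All 5 members reached 1 TPM in every library, as did 91.2% of the 10350 detected protein-coding genes. At 100 TPM in every library there were 4 of 5 members, Uba7 falling short in replicate 2, against 8.60% of the detected genes. Summed over the members, the pathway took 6050 TPM in replicate 1, 2081 TPM in replicate 2 and 4837 TPM in replicate 3. Their share of expected counts was 0.361%, 0.198% and 0.316% in the same order. Counts behind single values ran from 7174 for Uba7 to 49553 for Isg15. The interval deposited beside each TPM, whose confidence level the headers do not give, spanned at most ± 5.37%, while the coefficient of variation between libraries ran from 8.94% for Ube2l6 to 56.8% for Isg15.

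The order of the members was then read from ratios within a library, where the scaling of the library cancels. A pair was called separated when the log2 ratio of TPM + 0.1 kept 1 sign across the 3 libraries and its mean was more than 3 SD from 0. No p-value is given, since with 3 libraries the smallest one that an exact sign-flip test can reach is 0.25. By this rule 6 of 10 pairs were separated, and 9 of 10 kept 1 sign. Isg15 lay above Usp18 by 2.18 ± 0.46 log2 units, above Herc6 by 3.73 ± 0.92 and above Uba7 by 4.06 ± 0.14 (SD, n = 3 each, as in all ratios here). Usp18 lay above Herc6 by 1.55 ± 0.49 and above Uba7 by 1.88 ± 0.35, and Ube2l6 lay above Herc6 by 0.92 ± 0.20.

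The ratio of modifier to its E1 had the smallest SD of the 10 over all 3 libraries in TPM. Isg15 over Uba7 was 4.22 in replicate 1, 3.96 in replicate 2 and 4.0 in replicate 3 on the log2 scale, so the low level of both genes in replicate 2 left it nearly in place. Without replicate 2 its SD was 0.16, and 4 pairs had a smaller one, the smallest being 0.04 for Herc6 over Uba7. The steady ratio is that of gene totals. The only protein-coding transcript of Uba7 had 95.6, 13.2 and 109 TPM in replicates 1, 2 and 3. That form fell further in replicate 2 than the gene total did, so the steadiness does not extend to it. The ratio of modifier to E2 was among the widest, with Isg15 over Ube2l6 at 3.61, 1.76 and 3.06 log2 units in replicates 1, 2 and 3. Its mean of 2.81 ± 0.95 kept its sign and missed the rule.

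Neighbours in the order of means were not all apart. Usp18 over Ube2l6 was 1.02, 0.09 and 0.79 log2 units in replicates 1, 2 and 3, and its mean of 0.63 ± 0.49 was not separated. Herc6 over Uba7 was -0.13 in replicate 1, 1.28 in replicate 2 and -0.19 in replicate 3, so the E3 lay above the E1 in replicate 2 alone. Its mean of 0.32 ± 0.83 did not separate these genes. Ube2l6 over Uba7 stood at 1.25 ± 0.84 and was not separated either. Without replicate 2 all 10 pairs met the rule, which is easier to meet with 2 libraries, and Herc6 over Uba7 turned to -0.16.

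**Figure D2:**
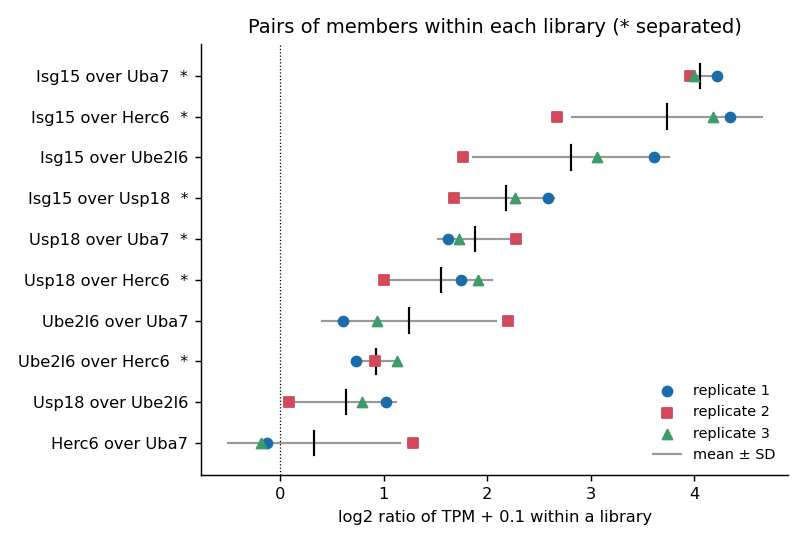
Log2 ratios of TPM + 0.1 for the 10 pairs of members, 1 point per library, with the mean as a tick and the SD as a line; asterisks mark separated pairs. Isg15 over Uba7, taken as gene totals, is tightly packed around 4.06, while Herc6 over Uba7 straddles 0.

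How far each member varied between libraries was tested against all genes. After a filter on low counts, which all 5 members passed, 11932 genes were tested. When counts were tested for homogeneity by chi-square, with library sizes scaled by TMM (edgeR's library scaling), 5 of 5 members differed between libraries by more than counting noise, as did 87.9% of all tested genes. With that share among all genes, the count says nothing particular about the members. Without replicate 2 it was 4 of 5, Ube2l6 being the exception, against 55.0% of the genes.

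Variance beyond that of genes of like abundance was not called for any member. In edgeR's quasi-likelihood fit with a one-sided F test and Benjamini-Hochberg adjustment, the adjusted p was 0.933 for Isg15 and Uba7, 0.994 for Usp18 and 0.999 for Ube2l6 and Herc6. The same test called 0 of 11932 genes (0%), with 503 genes (4.22%) at an unadjusted p under 0.05 and no member among them. DESeq2's rule for dispersion outliers called 17 of 11932 genes (0.142%) and no member. A test over 3 libraries of which 1 stands apart has little to measure variance with, so a missing call does not show that a member was stable.

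Where replicate 2 lay against the other libraries was therefore described across genes. Relative to the mean of replicates 1 and 3, replicate 2 had a TPM ratio of 0.291 for Isg15, 0.324 for Uba7, 0.495 for Usp18, 0.873 for Ube2l6 and 0.879 for Herc6. Among 5285 nuclear protein-coding genes with at least 10 TPM in every library the median of this ratio was 0.871. Ube2l6 and Herc6 thus sat at the middle of all genes. Isg15 had a lower ratio than all but 3.67% of them, Uba7 than all but 5.15% and Usp18 than all but 16%. The members therefore fell into a lowered set of modifier, E1 and protease and an even set of E2 and E3, grouped after these values were seen. Rescaled to nuclear protein-coding genes only, which takes the mitochondrial transcripts out of the total, the highest library was 3.22 times the lowest for Isg15, 2.70 times for Uba7 and 1.71 times for Usp18. On that scale it was 1.12 times for Ube2l6 and 1.18 times for Herc6.

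The base composition of transcripts moved with that ratio. Across 5283 of these genes with a leading transcript, the log2 ratio of replicate 2 to the others had a Spearman rho of -0.35 with GC content, given as a description, since all points share the same 3 libraries. The median log2 ratio was 0.06 in the decile of lowest GC content and -0.83 in the highest. Leading transcripts had 52.8% GC in Isg15, 54.8% in Uba7, 50.3% in Ube2l6, 39.4% in Herc6 and 50.9% in Usp18. For Uba7 the GC content and the length below are those of a form that held only 36.5% of the gene on average. It was not the largest form in replicate 2, so the deciles of Uba7 describe that gene poorly. Set against the median of its own GC decile, Isg15 still lay 1.44 log2 units lower (a difference of -1.44), Uba7 at -1.09 and Usp18 at -0.85. Ube2l6 lay at -0.03 and Herc6 at -0.25. Within those deciles 2.84% of 528 genes had a lower ratio than Isg15 8.14% of 528 a lower one than Uba7, and 13.1% of 528 a lower one than Usp18. Transcript length gave another picture for some members, in deciles also chosen after these values were seen. Among genes of like length, 15.3% of 529 had a lower ratio than Isg15, 0.947% of 528 than Uba7 and 16.3% of 528 than Usp18, with differences from the decile median of -1.31, -1.50 and -0.68 log2 units.

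**Figure D3:**
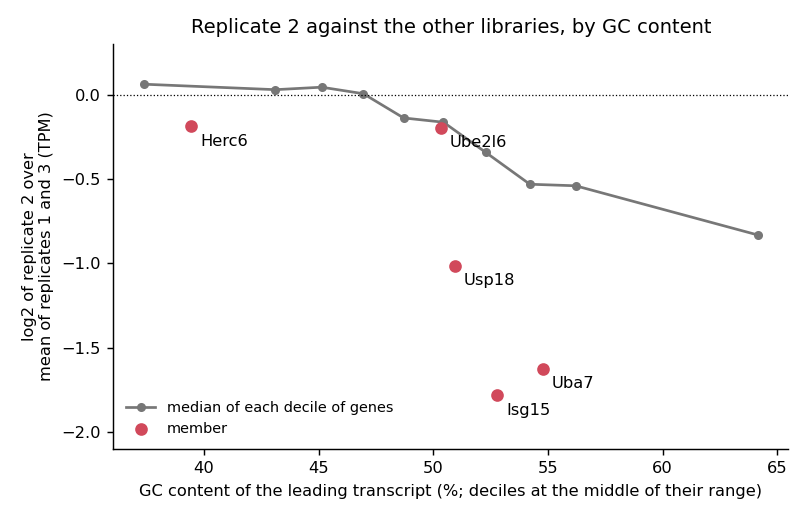
Log2 of replicate 2 over the mean of replicates 1 and 3, in TPM, against the GC content of the leading transcript; grey points are medians of deciles of 5283 genes and red points are the members. The grey line falls from 0.06 to -0.83, and Isg15, Uba7 and Usp18 lie well below it, with Ube2l6 and Herc6 near it.

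Members were next set against the gene that does the same job in a related system, or against a family relative, in 21 pairs. The member was the higher gene in all 14 separated pairs, and 19 of 21 kept 1 sign. Mean levels of the members lay above those of 92.7% to 99.7% of the detected protein-coding genes. Most genes set against them would thus be lower, and the direction alone says little about the pathway. For the modifier, Isg15 exceeded Nedd8, which activates cullin ligases, by 4.33 ± 0.68 log2 units, with Nedd8 at 132 ± 41.8 TPM. It exceeded Ufm1, a modifier linked to the endoplasmic reticulum, by 4.85 ± 0.84, with Ufm1 at 90.0 ± 16.4 TPM. Isg15 over the SUMO gene Sumo2 (286 ± 56.7 TPM) was 4.28, 1.73 and 3.56 in replicates 1, 2 and 3 and was not separated. Isg15 over the polyubiquitin gene Ubb was 1.29, 0.59 and 1.27 in the same order. Ubb itself had 1826 TPM in replicate 1, 755 TPM in replicate 2 and 1384 TPM in replicate 3, so Isg15 was above it in every library, with a mean of 1.05 ± 0.40 that was not separated.

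For the E1 step, Uba7 exceeded Uba6, which charges ubiquitin and FAT10, by 4.34 ± 1.2 log2 units. It exceeded Uba2 of the SUMO system by 2.25 ± 0.73. The ratio to Uba3 of the NEDD8 system, 2.33 ± 0.84, was not separated. The main ubiquitin E1, Uba1, had 129 TPM in replicate 1, 112 TPM in replicate 2 and 134 TPM in replicate 3. Uba7 was above it in replicates 1 and 3 (0.91 and 0.64 log2 units) and below it in replicate 2 (-0.62). All these ratios use gene totals, and much of the Uba7 total lay in transcripts not annotated as protein-coding. The only protein-coding form of Uba7, at 95.6, 13.2 and 109 TPM in replicates 1, 2 and 3, was below the Uba1 total in every library.

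For the E2 step, Ube2l6 exceeded Ube2m of the NEDD8 system by 1.10 ± 0.25 log2 units and Ufc1 of the UFM1 system by 2.44 ± 0.78. Its closest ubiquitin relative, Ube2l3, had 221 TPM in replicate 1, 379 TPM in replicate 2 and 223 TPM in replicate 3. Ube2l6 over Ube2l3 was 0.73, -0.18 and 0.85 log2 units in that order, so the sign changed in replicate 2.

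For the E3 step, Herc6 exceeded its HERC relatives Herc3 by 6.39 ± 0.53 log2 units and Herc4 by 2.89 ± 0.19. Herc3, a neighbour of Herc6 on chromosome 6, was low, at 3.41, 1.3 and 2.38 TPM in replicates 1, 2 and 3. Among other reported ISG15 ligases, Herc6 exceeded Arih1 (39.3 ± 12.3 TPM) by 2.34 ± 0.54 log2 units. Trim25 had 137 TPM in replicate 1, 162 TPM in replicate 2 and 114 TPM in replicate 3, and Herc6 over Trim25 was 0.50 ± 0.32, not separated.

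For removal, Usp18 exceeded all the proteases it was set against. The differences were 3.51 ± 0.72 log2 units over Usp14, 3.77 ± 0.26 over Usp5 and 4.24 ± 0.80 over Usp16, which have all been reported to act on ISG15. Over Senp8, which removes NEDD8, it was 6.84 ± 0.34, the largest of the 21 ratios. Without replicate 2 all 21 pairs met the rule, which is easier to meet with 2 libraries. Among them were Uba7 over Uba1 at 0.77 and Ube2l6 over Ube2l3 at 0.79.

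**Figure D4:**
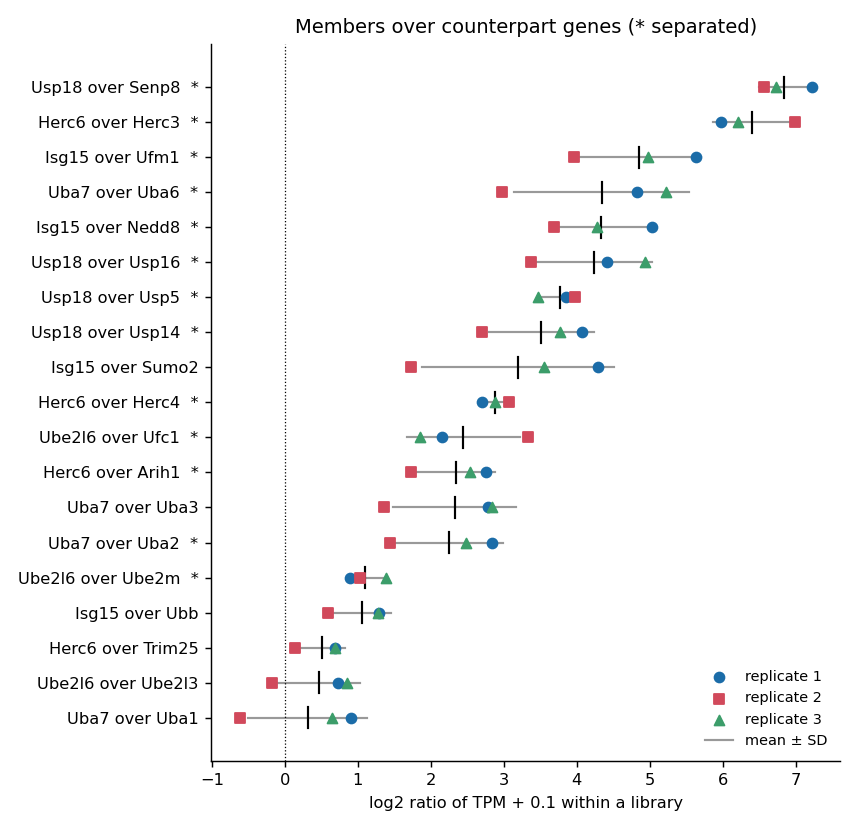
Log2 ratios of TPM + 0.1 of each member over its counterpart genes, for 19 of the 21 pairs, 1 point per library, with the mean as a tick and the SD as a line; asterisks mark separated pairs. Means run from 0.31 for Uba7 over Uba1 to 6.84 for Usp18 over Senp8, and replicate 2 crosses 0 in the lowest rows.

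Transcripts of the members were then compared within each gene as shares of its summed transcript TPM. For 4 members 1 protein-coding transcript was the largest in every library. Isg15 has 1 annotated transcript, Isg15-201. Usp18-201 held 98.8 ± 0.69% of its gene, Ube2l6-201 held 98.6 ± 1.02% and Herc6-201 held 92.0 ± 4.97% (SD, n = 3 each). Herc6-201 held the least of its gene in replicate 1, at 86.4%, and 77.9% there in the second quantification. These transcripts have 2 exons in Isg15, 4 in Ube2l6, 11 in Usp18 and 23 in Herc6.

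Uba7 was split among many of its 15 annotated transcripts. Its single protein-coding form, Uba7-201 (24 exons, 977 encoded residues), held 39.7% in replicate 1, 18.0% in replicate 2 and 51.7% in replicate 3, a mean of 36.5 ± 17.1%. In TPM it was 95.6, 13.2 and 109 in replicates 1, 2 and 3. The coding form was thus the largest in replicates 1 and 3 and not in replicate 2. Retained-intron transcripts, of which 10 are annotated, together held 48.8%, 33.8% and 38.6% in the same order. The largest of them on average, Uba7-212, covers the last 3 exons (chromosome 9, 107983025 to 107984053), begins 72 bases inside the preceding intron, and is 503 bases long. Uba7-212 held 21.7%, 9.81% and 20.2% in replicates 1, 2 and 3, but 11.4%, 1.07% and 10.6% in the second quantification. In replicate 2 of the second quantification Uba7-215, another retained-intron form, was larger, at 8.85%. Among 6254 protein-coding genes that averaged 10 TPM or higher, the median share in protein-coding transcripts was 96.1%, and 3.20% of genes had a lower share than Uba7. Among 4098 of these with an annotated retained-intron transcript, 95.9% had a lower retained-intron share than Uba7, and the median was 2.81%.

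In replicate 2 the largest Uba7 form was Uba7-211, annotated as a target of nonsense-mediated decay, the pathway that removes messages with an early stop codon. It held 36.3% in replicate 2, while replicates 1 and 3 had 0.867% and 0.434%. In TPM that was 26.6 in replicate 2, against 2.09 and 0.91. The second quantification put it at 32.7% in replicate 2, against 4.09% and 1.60% in replicates 1 and 3. Uba7-211 shares 20 whole exons with Uba7-201 and begins at another first exon (chromosome 9, 107975956 to 107975965, against 107975534 to 107975713). Its exon 4 begins 55 bases upstream of the matching exon 5 of Uba7-201, at 107976655. The junctions are shown because these bases tell the forms apart, with the extra bases in capitals.
Uba7-211: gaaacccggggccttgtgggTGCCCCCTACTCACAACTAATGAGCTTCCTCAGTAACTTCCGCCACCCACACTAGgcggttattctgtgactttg
Uba7-201: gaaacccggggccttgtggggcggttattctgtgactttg
The last 3 capital letters, TAG at 107976707 to 107976709, are the annotated stop codon of Uba7-211. The split between forms rests on reads over a few such junctions and is a model estimate in both quantifications. Replicate 2 differed from the other libraries in mitochondrial and ribosomal RNA, and the part of this in the Uba7 forms was not tested.

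**Figure D5:**
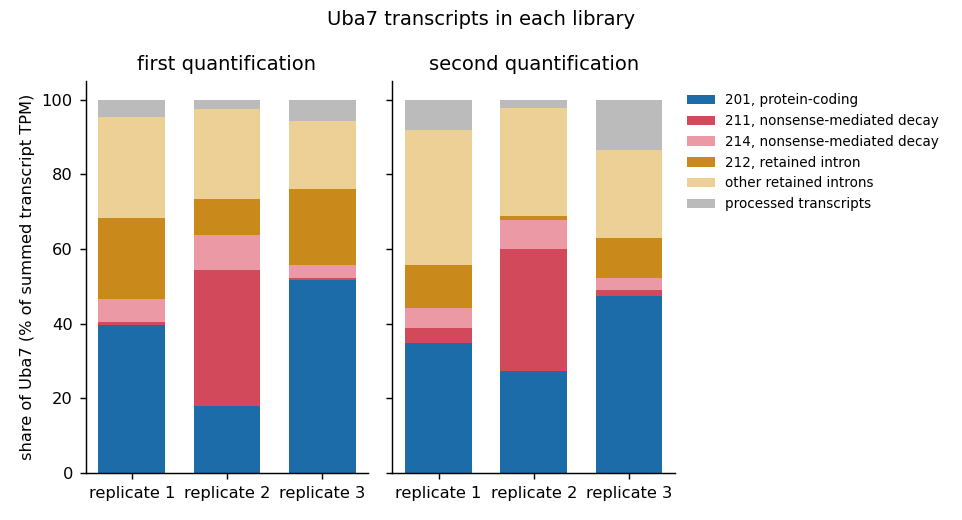
Shares of summed Uba7 transcript TPM in each library, in the first (left) and second (right) quantification, stacked by transcript or class. Uba7-211 is 36.3% of replicate 2 in the first and 32.7% in the second, and a thin band in the other libraries.

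The levels were checked against the second deposited quantification of the same reads. It gave Isg15 at 2979, 1105 and 3069 TPM and Usp18 at 507, 359 and 606 TPM in replicates 1, 2 and 3. Uba7 was at 169, 70.0 and 194 TPM, Ube2l6 at 245, 329 and 351 TPM, and Herc6 at 163, 187 and 170 TPM. Replicate 2 was thus again the low library for Isg15, Uba7 and Usp18, while Herc6 was highest there and Ube2l6 lowest in replicate 1. Second minus first, the mean log2(TPM + 1) difference lay between -0.27 for Ube2l6 and -0.16 for Herc6, against a median of -0.14 over all 10203 genes tested. By limma with Benjamini-Hochberg adjustment, calling an adjusted p under 0.05 with a difference of at least 1, 161 genes (1.58%) and 0 of 5 members were called, with an adjusted p of 0.774 for each member. Sequence shared with other genes could divert reads. At 95% identity over at least 100 bases, Isg15-201 matched a pseudogene, AC151275.1, listed at 0 TPM in every library. Herc6-201 matched Gm45193, an overlapping gene on the same strand with 0.80, 10.4 and 0.91 TPM in replicates 1, 2 and 3. Uba7-201 matched the overlapping Gm20661, at no more than 0.30 TPM, and Usp18-201 matched Gm44148 on the opposite strand, listed at 0. Ube2l6-201 matched 5 other genes that summed to at most 22.4 TPM in a library.

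Genes that work with the pathway were read from lists. The other ligases reported for ISG15 and HERC relatives were all lower than Herc6 on average, with a list median of 21.5 TPM over 6 genes, led by Trim25 (138 ± 23.8 TPM), Arih1 and Herc4 (26.6 ± 6.66 TPM), with Herc2 (12.4 ± 0.67 TPM) and Herc3 at the bottom. The 6 other proteases had a median of 25.7 TPM, led by Usp14 (49.8 ± 5.27 TPM), Usp5 (45.4 ± 20.6 TPM) and Usp16, and the lowest were Usp2 (1.95 ± 0.74 TPM) and Usp13, listed at 0 in replicates 1 and 2 and at 0.02 TPM in replicate 3. At the interferon receptor, where USP18 acts with STAT2 on the receptor chain IFNAR2, 6 of 6 genes reached 1 TPM in every library. The share among all detected protein-coding genes was 91.2%. Stat2 stood at 437 ± 93.4 TPM, Ifnar2 at 186 ± 37.8 TPM and Jak1 at 87.1 ± 7.19 TPM. Tyk2 (68.4 ± 30.1 TPM) and Skp2, a ligase subunit reported to control USP18 turnover (5.35 ± 1.38 TPM), were the lowest. Both chains of the integrin reported to bind extracellular ISG15 were present, Itgb2 at 255 ± 43.4 TPM and Itgal at 194 ± 43.8 TPM.

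Transcription factors that act on interferon-responsive promoters had a list median of 203 TPM over 7 genes. Irf7 led at 2538 ± 387 TPM, and Stat2 was also among the 3 highest. Irf9 (71.7 ± 7.26 TPM), a DNA-binding partner of STAT2, and Irf3 (24.8 ± 8.32 TPM) were the lowest. Genes of proteins reported to be modified by ISG15 had a median of 103 TPM. Of them 20 of 20 reached 1 TPM in every library, near the 91.2% of all detected protein-coding genes. The antiviral effectors Mx1 (1128 ± 336 TPM) and Ifit1 (1061 ± 172 TPM) were among the 3 highest, and Bag3 (20.5 ± 1.82 TPM) and Plcg1 (1.89 ± 0.57 TPM) were the lowest. Some of these genes are themselves interferon-induced, and several stand in more than 1 list. The median of all 10350 detected genes was 15.1 TPM.

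Genes with the most similar profile over the 3 libraries were found by the smallest root mean square difference of centred log2(TPM + 1), among 5293 protein-coding genes with at least 10 TPM in every library. For Isg15 they were Fabp3 (188, 47.8 and 145 TPM in replicates 1, 2 and 3), Daxx and Clec4n, with differences of 0.018 to 0.044. For Uba7 they were Rasa4 (279, 85.2 and 242 TPM), Ccnd3 and Rsrp1, at 0.0044 to 0.021. For Ube2l6 they were Dcaf5, Commd1 and Gpx1, for Herc6 Birc3, Slc25a25 and Slco3a1, and for Usp18 Ndfip2, Kdm5c and Gnas, all at no more than 0.012. With 3 libraries such likeness is easy to reach, and in the second quantification Fabp3 for Isg15 and Rasa4 for Uba7 were the only names found again. Between members, Isg15 and Uba7 differed by 0.12 and Ube2l6 and Herc6 by 0.16, while Isg15 and Ube2l6 differed by 0.77.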

How the data were processed

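Each of the 3 libraries came with 2 quantifications, which the deposited notes place on mm10 with GENCODE M21. The first, made from transcriptome alignments, has RSEM's column layout. The second, made from reads against a transcript index, has that of kallisto, and the sources used here name neither tool nor version. Per the file headers, the deposited tables hold expected counts (estimated counts in the second), TPM and, in the first, each transcript's percent of its gene. Reads shared by similar transcripts were divided by a model there, which can move the shares of Uba7 forms.

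The second tables were summed to genes. Counts were rounded and, after filterByExpr, scaled by TMM (factors 1.01, 0.886 and 1.12) with edgeR 4.0.16 in R 4.3.3. DESeq2 1.42.0 served as an alternative and limma 3.58.1 (log2(TPM + 1), mean of at least 1 TPM in either) compared the quantifications, all with a threshold of 0.05. Each test across genes was run on simulated data, where the excess-variance test missed most of the smaller simulated shifts. Shared sequence was found with blastn 2.17.0+. The text names the members, all counterparts, the 3 highest and 2 lowest genes of each list, and the 3 nearest profiles of each member. A few genes that this rule names are counted in totals and not reported here by name. Members, lists and tests were chosen with earlier results of these data known. With 1 group, replicate numbers pair nothing. P-values cover the spread between these libraries and, for counts, counting error only.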

Additional observations from a re-analysis of the deposited data

How the results depend on the processing

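No paired analysis was possible because the libraries form 1 group. Under the settings tried, 78 of 93 values for the main results stayed on the same side of the threshold or within 1 SD or 1.5 times of the reported value, as did 158 of 185 for single pairs and the comparisons added after seeing the data. Part of the 78 was fixed in advance. For levels and transcript shares, leaving out 1 of 3 libraries cannot move the mean by 1 SD, so those values show no robustness. Isg15 has 1 annotated transcript, so its share is 100% under every setting. Changing the pseudocount barely moved the ratios between members, and a test calling at most 0.314% of genes for excess variance would rarely call a member. Such values, also among the 158, show little. Of the mean levels, Ube2l6 moved to 308 TPM in the second quantification, and with TPM rescaled to nuclear protein-coding genes Ube2l6 moved to 437 and Herc6 to 230 TPM. Leaving out each library in turn put the means at 2243 to 3913 TPM for Isg15, 141 to 225 for Uba7, 351 to 384 for Ube2l6, 181 to 203 for Herc6 and 525 to 719 for Usp18. Separated pairs of members numbered 4 to 10 without 1 library, and 3 with CPM. The CPM scale leaves transcript length in and turns Ube2l6 over Herc6 to -0.81 log2 units. Isg15 over Usp18, Isg15 over Herc6 and Usp18 over Herc6 lost their separation with CPM. Usp18 over Herc6 also lost it without replicate 1 or replicate 3, and Isg15 over Herc6 without replicate 3. Herc6 over Uba7 ranged from -0.16 to 0.58 without 1 library. Separated counterpart pairs numbered 11 to 21 without 1 library and 11 in the second quantification. Uba7 over Uba6 and Uba7 over Uba2 lost their separation in the second quantification and without replicate 1 or replicate 3. Ube2l6 over Ufc1 lost it in the second quantification and without replicate 1. Excess variance was called for 64 of 20372 genes (0.314%) with no filter and 17 of 11932 (0.142%) by DESeq2's outlier rule. Without 1 library it was called for 7 to 20 genes (0.0575% to 0.164%). No member was called each time, which at such shares says nothing particular about the members. Genes beyond counting noise numbered 6695 to 9696 without 1 library, or 55% to 79.4% of those tested. Genes differing between quantifications numbered 247 (2.42%) with pseudocount 0.1 and 0 with no filter. Without 1 library they numbered 116 to 184 (1.15% to 1.8%), and no member was called under any of these settings. Leading-transcript shares moved in the second quantification to 96.5% for Ube2l6 and 97.7% for Usp18, and the coding share of Uba7 ranged from 28.9% to 45.7% without 1 library. Against genes of like transcript length, a comparison chosen after seeing the data, replicate 2 over the others turned to 0.34 for Ube2l6 and kept its sign for the other members. Where a cause is not in the setting's own construction, the cause was not tested. Counts of the members as gene totals were at least 7174. The part of depth was not tested, for these totals or for single forms of Uba7, and 3 libraries limit every statement on spread.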

Other observations

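Levels of related conjugation systems were read beside all detected protein-coding genes, of which 91.2% reached 1 TPM in every library. In the SUMO system 16 of 16 genes reached 1 TPM in every library, with Sumo2 the highest and the lowest levels in the ligase Pias3 (7.93 ± 2.57 TPM) and the protease Senp7 (5.88 ± 1.2 TPM). In the NEDD8 system it was 14 of 14, led by the E2 Ube2m (172 ± 22.9 TPM), Nedd8 and the ring protein Rbx1 (95.4 ± 5.85 TPM), and lowest in Senp8 (5.0 ± 1.41 TPM) and Dcun1d4 (1.30 ± 0.12 TPM). In the UFM1 system 6 of 6 reached it, from Ufm1, Ufc1 and the protease Ufsp2 (35.0 ± 2.80 TPM) down to the ligase Ufl1 (11.3 ± 1.87 TPM) and Ufsp1 (1.81 ± 0.71 TPM). In the ATG8 and ATG12 systems of autophagy 15 of 15 did, led by Gabarap (634 ± 194 TPM), Atg3 (71.7 ± 29.5 TPM) and Map1lc3b (60.2 ± 16.7 TPM). Atg4d (10.3 ± 7.33 TPM) and Atg10 (8.14 ± 2.66 TPM) were lowest there.

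The FAT10 modifier gene Ubd, which inflammatory cytokines induce in other cells, had 0.09, 0.10 and 0.25 TPM in replicates 1, 2 and 3, while its E2 Ube2z stood at 39.0 ± 15.8 TPM. Of the ubiquitin-system genes, Ubb was lowest in replicate 2, as Isg15 was, whereas Ube2d3 was highest there at 2193 TPM, with 382 TPM in replicate 1 and 411 TPM in replicate 3. Uba1 and Uba6 (7.70 ± 1.94 TPM) were the lowest of that list.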
